A study of Homo sapiens with 22 samples.

Results

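The regions described here are places in the K562 genome where the authors' peak lists held a Jun peak at every time and in every library of a phorbol ester course. A region of the deposited Jun table on chromosomes 1 to 22 or X was taken when it overlapped, by at least 1 bp, a peak of each of the 6 Jun libraries. 11807 of 137719 regions (8.57%) met that rule, and they are called persistent Jun regions below. They were chosen by the presence of Jun peaks, so every Jun value at them is a description without a test, while the acetylation, CTCF, cohesin and sequence values were not used in the choice.

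K562 is an established human leukemia line that can be driven toward a megakaryocyte-like state. All cells were wild type (WT), came from that single line and were given 25 nM PMA, a phorbol ester, for 0, 6 or 72 h, so the 0 h libraries also carry the PMA label. The antibodies were against Jun, H3K27ac (acetylation of lysine 27 of histone H3), CTCF and Rad21, the last without a 6 h time, with 2 libraries per antibody and time and 22 libraries in all. The titles shorten the assay to CNR, read here as CUT&RUN, in which an antibody directs a nuclease to release DNA beside its target; the cells were fixed with formaldehyde beforehand. The labels do not say that the 2 libraries of a group came from separate cultures, so p-values measure the spread between these libraries, which may be technical.

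Jun is a basic leucine zipper protein that pairs with Fos, Jun or ATF family members to form AP-1. Jun-Fos pairs favour the phorbol ester response element, a palindrome around a single central base, and Jun-ATF pairs favour the cyclic AMP response element (CRE), which has one base more. Phorbol esters activate protein kinase C and the MAP kinases, which raise AP-1 activity, and several AP-1 genes are themselves targets of AP-1. H3K27ac marks active promoters and enhancers, CTCF is a DNA-binding insulator protein, and Rad21 is a subunit of the cohesin ring that holds chromatin loops.

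Promoter sequences are shown first because promoters are the members for which reference sequence was used. They come from the RefSeq promoter table of GRCh38.p14 and run from 250 bases before the annotated start up to it, 5′ to 3′ on the strand of the gene. Each lies inside a persistent Jun region. Capitals mark a match to the CRE letters TGACGTCA or to the AP-1 letters TGANTCA on either strand. JUND and MAFF encode AP-1 partners, ZFP36L1 encodes an RNA-binding protein that speeds decay of AU-rich messengers, RPL3 encodes a ribosomal protein, and TAL1 encodes an erythroid and megakaryocyte transcription factor. JUN and FOSB are given as AP-1 genes with strong Jun signal whose windows hold neither set of letters, which says only that these letters are absent there.
JUN, chr1:58784048-58784297, - strand: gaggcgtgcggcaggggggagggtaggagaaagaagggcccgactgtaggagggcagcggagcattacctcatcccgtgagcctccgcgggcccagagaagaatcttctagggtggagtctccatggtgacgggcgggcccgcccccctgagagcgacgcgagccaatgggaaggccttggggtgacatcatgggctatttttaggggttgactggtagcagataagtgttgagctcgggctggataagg
FOSB, chr19:45467746-45467995, + strand: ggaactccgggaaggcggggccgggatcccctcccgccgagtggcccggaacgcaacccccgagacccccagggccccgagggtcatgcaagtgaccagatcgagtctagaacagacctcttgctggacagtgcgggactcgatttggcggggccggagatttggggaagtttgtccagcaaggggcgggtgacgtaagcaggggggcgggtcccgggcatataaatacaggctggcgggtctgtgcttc
JUND, chr19:18281623-18281872, - strand: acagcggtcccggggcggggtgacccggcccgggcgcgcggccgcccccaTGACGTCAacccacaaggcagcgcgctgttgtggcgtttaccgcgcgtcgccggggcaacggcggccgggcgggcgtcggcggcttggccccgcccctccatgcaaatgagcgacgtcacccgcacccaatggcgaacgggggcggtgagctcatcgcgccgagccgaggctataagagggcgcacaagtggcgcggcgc
MAFF, chr22:38201744-38201993, + strand: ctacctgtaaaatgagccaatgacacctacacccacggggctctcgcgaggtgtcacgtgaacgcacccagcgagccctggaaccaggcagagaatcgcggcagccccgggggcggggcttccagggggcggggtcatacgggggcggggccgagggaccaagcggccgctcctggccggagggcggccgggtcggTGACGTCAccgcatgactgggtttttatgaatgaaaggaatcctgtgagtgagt
ZFP36L1, chr14:68793417-68793666, - strand: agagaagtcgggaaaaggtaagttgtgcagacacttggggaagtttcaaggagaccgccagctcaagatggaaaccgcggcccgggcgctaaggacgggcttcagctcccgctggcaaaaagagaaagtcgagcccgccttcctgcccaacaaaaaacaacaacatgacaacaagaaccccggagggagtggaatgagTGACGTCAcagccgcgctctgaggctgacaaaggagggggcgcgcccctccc
RPL3, chr22:39319624-39319873, - strand: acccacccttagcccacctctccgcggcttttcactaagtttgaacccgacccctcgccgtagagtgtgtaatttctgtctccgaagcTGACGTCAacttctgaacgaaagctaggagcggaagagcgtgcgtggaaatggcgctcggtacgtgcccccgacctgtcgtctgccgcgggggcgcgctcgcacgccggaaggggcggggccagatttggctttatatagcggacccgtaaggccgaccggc
TAL1, chr1:47232336-47232585, - strand: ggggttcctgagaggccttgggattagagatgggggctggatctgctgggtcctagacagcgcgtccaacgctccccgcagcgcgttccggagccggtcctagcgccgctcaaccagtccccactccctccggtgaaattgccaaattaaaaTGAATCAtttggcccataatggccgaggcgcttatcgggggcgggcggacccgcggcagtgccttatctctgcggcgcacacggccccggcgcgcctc

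The CRE letters began at position -200 from the start of JUND, -54 from that of MAFF, -52 from that of ZFP36L1 and -162 from that of RPL3. The AP-1 letters of TAL1 began at position -98 and read TGAATCA, which is neither TGACTCA nor TGAGTCA. The Jun summits of the 6 libraries fell between positions -139 and -88 at JUND, between -165 and -67 at MAFF and between -11 and 112 at ZFP36L1. At FOSB, with no match, they fell between -207 and -118, and at JUN between -153 and -116.

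Matches were counted on both strands in 34789 windows of 300 bases (250 before and 50 after each start). AP-1 letters were in 11.5% of the 3206 windows at persistent Jun regions, 9.27% of the 8815 at other Jun regions and 6.54% of the 22768 at none, against 7.69% of all windows. CRE letters were in 7.55%, 3.12% and 0.545% in the same order, against 1.84% of all. They were thus more frequent at persistent regions than at the other Jun regions by a wider ratio than the AP-1 letters were. The GATA letters AGATAA ran the other way, at 5.12%, 7.69% and 12.1%, against 10.4% of all. The ETS letters GGAAGT were in 30.0%, 29.2% and 19.3%, against 22.8% of all, so they hardly separated persistent from other Jun regions. The CRE letters do not contain the AP-1 letters, although both begin with TGA and end with TCA. The median GC content was 63.3% at persistent and at other Jun regions and 54.3% at windows without a Jun region, and windows of neighbouring starts overlap, so these shares are descriptions without a test.

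**Figure D1:**
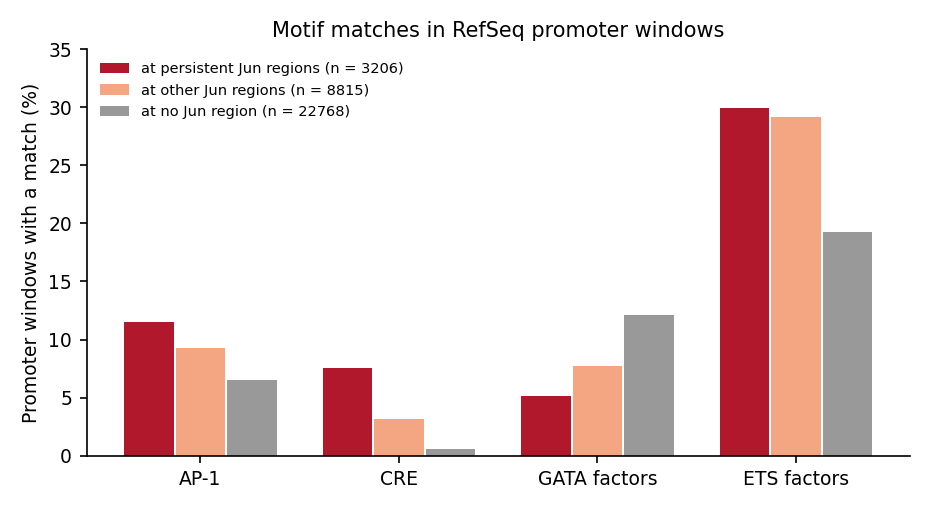
Share of RefSeq promoter windows of 300 bases (vertical axis, percent, from 0) that hold AP-1, CRE, GATA or ETS letters on either strand, for windows at persistent Jun regions, at other Jun regions and at no Jun region. The CRE bars fall from 7.55% to 0.545%, while the ETS bars at both kinds of Jun region are near 30.0%.

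Persistent Jun regions were wide and lay near genes more often than Jun regions in general. Their median width was 815 bp, against 477 bp for all Jun regions, and wide regions have more room to overlap a peak. Leaving out chromosome 8, which the promoter table used here did not hold, 2150 of 11373 (18.9%) overlapped a promoter window, against 6.80% of all Jun regions and 2.25% of the regions with peaks in both 72 h libraries and no other. Regions with a peak in exactly 5 libraries were close at 18.2%. Genes spanned 70.5% of the persistent regions and 67.5% of all. Chromosome 19 had 15.1% of its Jun regions among the persistent ones, and chromosome 13 had 5.94%. The nearest other persistent region was a median of 27139 bp away, and 24.8% had one within 10 kb.

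Total counts per Jun library ran from 4766421 (6 h, replicate 1) to 18883962 (72 h, replicate 2), and those of the other antibodies from 2553677 to 27266241. The 6 h libraries were the shallowest and the 72 h libraries the deepest, which touches the rule itself. Of the 7269 regions with exactly 5 peaks, 4420 (60.8%) lacked only the peak of the 6 h replicate 1 library, and without that library the rule would have taken 16227 regions. The persistent regions held 39.4% and 35.7% of the Jun peaks at 0 h, 52.6% and 35.7% at 6 h, then 13.5% and 12.7% at 72 h. H3K27ac peaks were present in both 0 h libraries at 6 of 8 genes checked as active in K562, with HBE1 and GATA1 the exceptions.

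Jun was strong at these regions at 0 h and weaker, relative to the other Jun regions, at 72 h. Median Jun signal was 19.7 and 20.2 CPM (counts scaled to the library total times its TMM factor) at 0 h, 17.3 and 19.0 at 6 h, then 13.2 and 12.8 at 72 h. Both 72 h libraries were below all the others on that scale. When counts were scaled by library totals alone, the medians were 16.97 and 16.4, then 15.9 and 18.8, then 16.1 and 15.99, so the times overlapped. On that scale those of all Jun regions went from 2.263 and 2.209 at 0 h to 3.89 and 3.97 at 72 h. The totals include other chromosomes and contigs. Chromosomes 1 to 22 and X held 73.6% and 70.4% of Jun counts at 0 h, 75.7% and 80.3% at 6 h, then 89.7% and 90.3% at 72 h. What this shift does to the medians was not tested. Per kb of region, which allows regions of unlike width to be compared, the medians were 24.1 and 25.1, then 20.7 and 23.2, then 15.8 and 15.3 CPM per kb with TMM factors. Regions just outside the rule, with exactly 5 peaks, had medians of 11.1 and 11.5, 9.08 and 10.4, and 7.89 and 7.81 CPM, and all Jun regions stayed between 2.63 and 3.19 CPM, again with TMM factors. In bulk libraries, fewer cells with Jun at a region and less Jun per cell cannot be told apart.

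**Figure D2:**
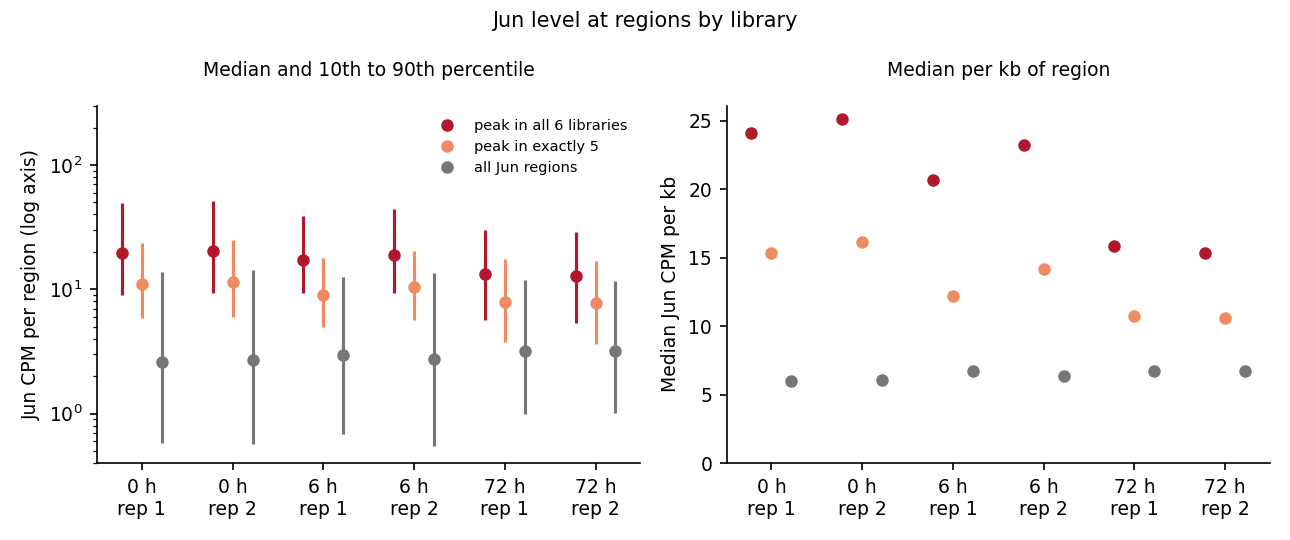
Jun level by library for persistent Jun regions, regions with a peak in exactly 5 libraries and all Jun regions. Left, CPM per region on a log axis, with points for the median and lines from the 10th to the 90th percentile over regions; right, median CPM per kb. Counts are scaled with TMM factors; the persistent medians lie between 20.2 and 12.8 CPM and above both other sets in every library.

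As a description, 72 against 0 h gave 1118 persistent regions with higher and 7403 with lower Jun at an adjusted p under 0.05 (edgeR), with a median log2 fold change of -0.77, where 53.7% of all tested Jun regions were called (28.0% higher and 25.7% lower) and their median was 0.17. At 6 against 0 h, 1712 were higher and 2976 lower, where 25.3% of all were called (13.1% higher and 12.2% lower). At 72 against 6 h, 224 were higher and 5719 lower, where 26.2% of all were called (12.7% higher and 13.5% lower). Single libraries moved these numbers: 3052 were called at 6 against 0 h without 0 h replicate 2, and 2257 and 1746 at 72 against 6 h without 72 h replicate 1 or 2. The splits also depend on scaling. When libraries were scaled by total counts instead of TMM, the median at 72 against 0 h was -0.21 with 37.8% of calls higher in place of 13.1%, and the median of all regions rose to 0.73. With factors taken from the persistent regions themselves it was -0.01 with 50.4% higher. At 6 against 0 h the median of -0.15 turned to 0.05 under both scalings, and the share of calls that were higher went from 36.5% to 56.0% and 55.3%. At 72 against 6 h that share went from 3.77% to 26.4% and 53.9%. The median of the persistent regions at 72 against 0 h lay below that of all Jun regions under TMM and both of these scalings, and no absolute loss of Jun can be read from it.

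In the authors' deposited table, 10928 of the persistent regions (92.6%) carry the label static, against 89.96% of all Jun regions. The label upLate is carried by 404 (3.42%, against 4.90% of all) and upEarly by 15 (0.127%, against 0.157%). The label downEarly is carried by 277 (2.35%, against 3.13%) and downLate by 183 (1.55%, against 1.86%). The median of the authors' log2 fold changes at 72 h in that table was -0.79 over the persistent regions and 0.06 over all.

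The positions of the Jun summits were compared within each region. The distance between the strongest summits of the replicates had a median of 41 bp at 0 h, 55 bp at 6 h and 30 bp at 72 h. Between 0 and 6 h it was 58 bp for replicate 1 and 54 bp for replicate 2, and between 0 and 72 h it was 49 and 45 bp. Distances between 0 and 72 h were thus above those between replicates at either time. Those between 0 and 6 h were near the distance between 6 h replicates and above that between 0 h replicates.

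Most persistent Jun regions overlapped an H3K27ac peak, and the share was highest at 72 h. H3K27ac peaks of both replicates were found at 57.2% at 0 h, 65.7% at 6 h and 79.2% at 72 h, against 18.3%, 16.4% and 33.7% of all Jun regions. Regions with a Jun peak in exactly 5 libraries had 45.9%, 45.9% and 68.0%, nearer to the persistent regions than to all Jun regions. Of all Jun regions, 15.7% had no Jun peak in any library. In single libraries the shares at persistent regions were 60.7% and 61.3%, 71.9% and 72.4%, and 82.8% and 82.1%, so the times did not overlap. The step from 0 to 6 h depended on the peak rule: with peaks at a −log10 q of at least 10 the shares were 43.9%, 38.6% and 64.4%, and with peaks covering at least 50% of the region 34.3%, 36.2% and 60.3%. Over all Jun regions the single 0 and 6 h libraries overlapped, and only the 72 h libraries stood apart. A peak in every H3K27ac library was found at 5904 of the 11807 persistent regions, against 12.3% of all Jun regions, and in none at 1211 (10.3%), against 53.6%. At regions with exactly 5 Jun peaks these shares were 34.8% and 17.8%.

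CTCF and cohesin peaks were also common. CTCF peaks of both replicates were at 15.9%, 11.8% and 21.8% at 0, 6 and 72 h, against 5.75%, 4.50% and 7.28% of all Jun regions, but the 72 h libraries alone gave 25.0% and 45.0%, so that the 72 h share rests on which library is read. With peaks at a −log10 q of at least 10 the CTCF shares were 11.7%, 8.67% and 11.9%, and with at least 50% of the region covered 8.52%, 6.87% and 9.76%. Rad21 peaks of both replicates were at 42.5% at 0 h and 52.4% at 72 h, against 10.8% and 10.5% of all Jun regions. Regions with exactly 5 Jun peaks had 30.5% and 29.4% for Rad21, and 9.29%, 6.77% and 12.4% for CTCF. Single Rad21 libraries at persistent regions gave 51.1% and 51.6%, then 71.8% and 58.8%, with both 72 h libraries above both 0 h libraries. That difference was not seen under the stricter peak rules, with 23.7% and then 21.95% by q and 17.8% and then 17.9% by coverage. All 16 libraries of the other antibodies had a peak at 426 persistent regions (3.61%, against 0.561% of all Jun regions), and none of the 16 at 348 (2.95%, against 44.7%). The same shares of regions with exactly 5 Jun peaks were 1.75% and 9.04%.

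**Figure D3:**
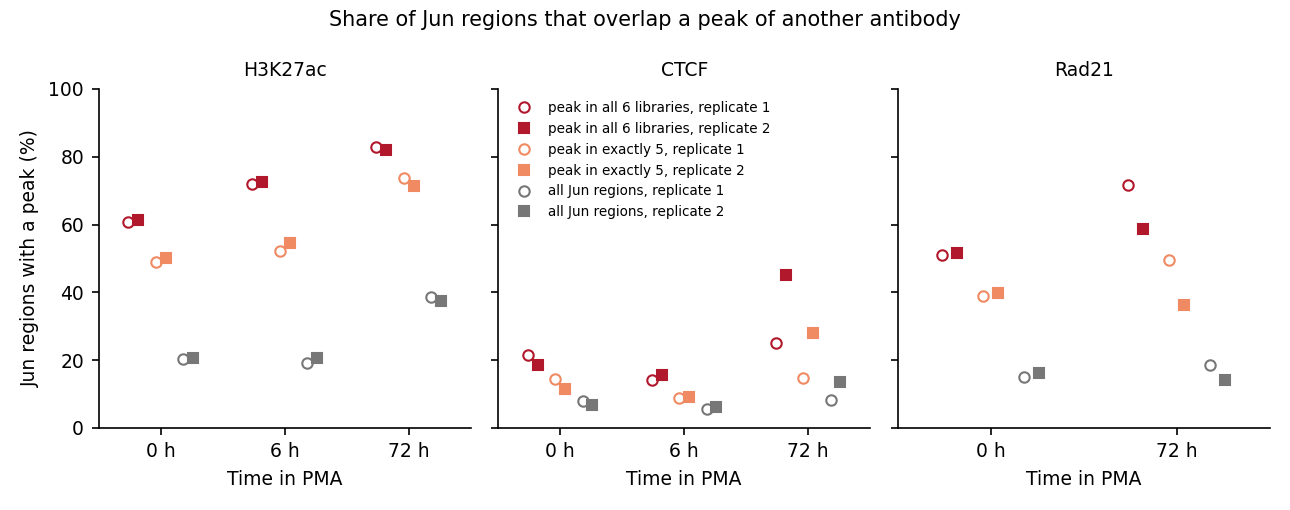
Share of Jun regions that overlap an H3K27ac, CTCF or Rad21 peak (vertical axis, percent) at each time in PMA, for persistent Jun regions, regions with a Jun peak in exactly 5 libraries and all Jun regions. Open circles are replicate 1 and filled squares replicate 2; the persistent regions are highest in every library, and the 72 h CTCF replicates lie apart at 25.0% and 45.0%.

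Acetylation itself moved at most persistent regions in both directions. Of 11484 tested H3K27ac regions that overlap a persistent Jun region, edgeR's quasi-likelihood test with Benjamini-Hochberg adjustment called 4744 higher and 3570 lower at 6 against 0 h, together 72.4% where 58.6% of all H3K27ac regions were called (32.3% higher and 26.3% lower). The called share at 6 against 0 h was 69.4% at regions with exactly 5 Jun peaks, near that of persistent regions, and 60.9% at other Jun regions. Where the mean count was 50 or more, 7750 of 10181 were called at persistent regions, beside a background of 71.1%. At 72 against 0 h, 4656 at persistent regions were higher and 4554 lower, together 80.2%, near the background of 81.5% (43.4% higher and 38.1% lower). At 72 against 6 h, 3153 were higher and 4205 lower, together 64.1% beside a background of 63.8% (33.1% higher and 30.8% lower). The median log2 fold change was 0.19 at 6 h and 0.00 at 72 h, against 0.20 and 0.18 over all H3K27ac regions and 0.50 and 1.00 at the other Jun regions. Scaling by total counts moved the 6 h medians to 0.53, both here and over all regions, and the higher share of calls from 57.1% to 74.6%. With DESeq2 the higher share at 72 against 6 h was 53.9% in place of 42.9%. Called shares at 72 h that lie near the background say nothing particular to the persistent regions.

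Sorting the regions by their H3K27ac peaks separated groups whose Jun signal differed. Where H3K27ac peaks were in all 6 libraries (5904 regions, 32.6% at a promoter), the median Jun log2 fold change at 72 against 0 h was -0.97, and 149 were higher and 4528 lower. Where acetylation was gained, with no 0 h peak and a peak in both 72 h libraries (2232 regions, 3.96% at a promoter), it was 0.17, with 771 higher and 438 lower. Where it was lost (149 regions), it was -1.53, with 144 lower and 0 higher. Beside these counts, 28.0% of all tested Jun regions were called higher and 25.7% lower. Regions that gained acetylation had less Jun at 0 h, with a median of 16.1 CPM per kb in replicate 1 against 27.8 in the regions acetylated throughout.

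Rad21 also differed between these groups, where 15.4% of all Rad21 regions were called higher and 7.91% lower. In the regions that gained acetylation, 1204 of 1924 tested members had higher and 4 lower Rad21 at 72 against 0 h, with a median of 1.41. In those acetylated throughout, 852 of 5702 were higher and 220 lower, with a median of 0.16. At regions that lost acetylation, 2 of 121 were higher and 20 lower.

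Across persistent regions, the Jun and H3K27ac log2 fold changes at 72 against 0 h had a Pearson correlation of 0.760 (n = 10905 regions). The values for Rad21 and CTCF were 0.587 (n = 10639) and 0.509 (n = 7229). Regions share the libraries of each time, and these are descriptions without a p. The 412 regions with at least 2-fold higher Jun at 72 h had a median H3K27ac log2 fold change of 4.12, and 404 of the 405 with a tested H3K27ac region were called higher. Rad21 was higher at 352 of the 385 tested among them. The 4667 regions with at least 2-fold lower Jun had a median H3K27ac change of -0.73, with 292 called higher and 2895 lower of 4097. In between, 6728 regions within 2-fold had a median H3K27ac change of 0.68, and their own Jun median was -0.35. Beside these counts, 43.4% of all tested H3K27ac regions were called higher and 38.1% lower. For Rad21 the shares were 15.4% and 7.91%.

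**Figure D4:**
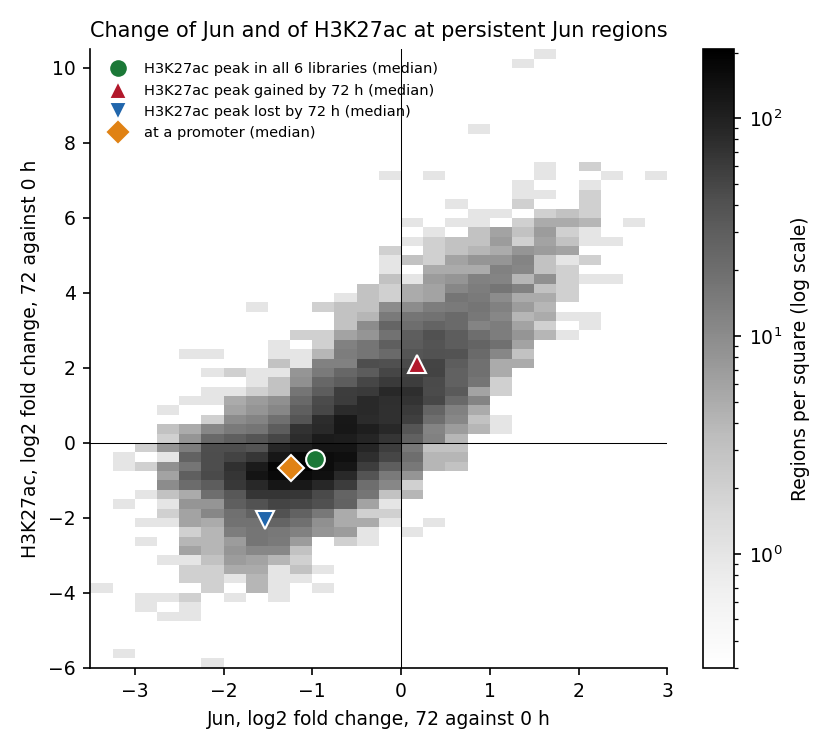
Log2 fold change of Jun (horizontal) and of H3K27ac (vertical) at 72 against 0 h over persistent Jun regions, as numbers of regions in squares of 0.25 by 0.25 (grey, log scale). Coloured symbols are the medians of the regions with H3K27ac peaks in all 6 libraries, gained by 72 h, lost by 72 h and at a promoter; the cloud runs from lower left to upper right (correlation 0.760).

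One of the regions named for the largest H3K27ac gain was in PTPRM, which encodes a receptor tyrosine phosphatase, at chr18:8116022-8117292. H3K27ac was 0.91 and 0.95 CPM at 0 h, 51.9 and 50.5 at 6 h, then 117 and 143 at 72 h, a log2 fold change of 7.12 at 72 against 0 h (SE 0.18, edgeR adjusted p = 1.91e-20). The times did not overlap and rose at each step. Jun at this region was 14.1 and 9.17, then 67.0 and 93.4, then 83.8 and 79.5 CPM. Rad21 went from 4.09 and 3.80 to 23.8 and 24.3 CPM, a log2 fold change of 2.60 (SE 0.29, edgeR adjusted p = 4.13e-06). A Jun peak was thus called here before PMA, at a level below the median of persistent regions, while H3K27ac was under 1 CPM.

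A second member rose early and then receded. At chr7:149233403-149234343, 5778 bp from the start of ZNF212, H3K27ac was 0.62 and 0.63 CPM at 0 h, 66.8 and 64.7 at 6 h, then 37.9 and 37.2 at 72 h (log2 fold change 6.69 at 6 against 0 h, SE 0.18, edgeR adjusted p = 1.2e-18). Jun took the same course, from 11.1 and 7.17 to 112 and 144 and then 60.2 and 62.0 CPM. The 6 h libraries were highest for both antibodies, with no overlap between times.

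The other regions that the rule named for the largest H3K27ac gain followed PTPRM's order of times. At chr3:126284086-126285217 H3K27ac was 0.40 and 0.32, then 25.3 and 27.2, then 51.4 and 67.1 CPM. Within PSG4, a pregnancy-specific glycoprotein gene, at chr19:43200867-43201835, it was 0.11 and 0.16, then 4.13 and 4.28, then 23.2 and 26.8 CPM. Within DNAH17, a dynein gene, at chr17:78568004-78568951, it was 0.11 and 0.21, then 3.43 and 2.12, then 28.2 and 30.2 CPM. At chr12:30417491-30418937 it was 0.11 and 0.16, then 4.76 and 6.89, then 19.4 and 20.9 CPM. The 0 h values of PSG4, DNAH17 and the chromosome 12 region rest on a handful of counts, so no fold is given for them.

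Other regions lost acetylation. At chr6:135073765-135074672, outside any gene span, H3K27ac fell from 207 and 210 CPM to 34.0 and 41.6 and then 8.43 and 8.19 (log2 fold change -4.65 at 72 against 0 h, SE 0.13, edgeR adjusted p = 5.39e-20). Jun was 26.98 and 33.5, 10.7 and 10.2, and 5.80 and 5.14 CPM, and Rad21 fell from 52.0 and 32.9 to 13.8 and 9.05 CPM (log2 fold change -1.88, SE 0.28, edgeR adjusted p = 5.51e-05). All 3 antibodies were lowest at 72 h without overlap, yet H3K27ac and Jun peaks were still called there in every library.

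A region 3901 bp from the start of PRKAA1, which encodes a catalytic subunit of the AMP-activated kinase, behaved alike (chr5:40801609-40802547). H3K27ac was 131 and 132, 41.6 and 44.4, and 5.83 and 4.84 CPM, a log2 fold change of -4.62 (SE 0.13, edgeR adjusted p = 4.75e-20). Jun was 48.3 and 39.4, then 15.2 and 15.5, then 7.09 and 6.32 CPM. Regions within RNGTT, a messenger capping enzyme gene, and NOXRED1 changed by -4.41 and -4.29 on the log2 scale. At chr5:110817341-110817987 H3K27ac was 14.2 and 13.3, then 1.12 and 1.38, then 0.14 and 0.33 CPM, and its 72 h values rest on a handful of counts. In IHO1, at chr3:49238455-49239312, H3K27ac was 41.4 and 41.9 at 0 h, 4.90 and 4.82 at 6 h, then 18.4 and 18.8 CPM at 72 h (log2 fold change -3.10 at 6 against 0 h, SE 0.14, edgeR adjusted p = 1.19e-15), so the 6 h libraries were the lowest.

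Some regions had steady H3K27ac and lower Jun at 72 h on the TMM scale. The promoter of BAG3, a co-chaperone gene, had 14.4 and 17.6, 14.3 and 15.7, and 15.8 and 16.3 CPM of H3K27ac at chr10:119651056-119651742, and the times overlapped. Jun there was 9.92 and 12.6, then 8.85 and 13.7, then 6.04 and 6.88 CPM. At chr1:226110759-226111702 H3K27ac lay between 26.6 and 36.6 CPM in all 6 libraries, and Jun went from 25.8 and 31.2 at 0 h to 10.9 and 10.0 CPM at 72 h.

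At promoters, lower values outnumbered higher ones for Jun and for H3K27ac. At the 2150 promoter members the median Jun log2 fold change at 72 against 0 h was -1.24, with 38 higher and 1872 lower, and at 9223 members off promoters -0.64, with 1024 higher and 5297 lower. H3K27ac at promoter members had a median of -0.67, with 264 higher and 1603 lower of 2132 tested, against 3984 higher and 2650 lower of 8367 and a median of 0.30 elsewhere. Rad21 at promoters had a median of 0.04, with 162 higher and 54 lower of 2098, and elsewhere 0.57, with 2623 higher and 241 lower of 8152. The shares over all tested regions were 28.0% higher and 25.7% lower for Jun. They were 43.4% and 38.1% for H3K27ac, and 15.4% and 7.91% for Rad21.

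The sequence letters sorted promoter members further. The 186 with CRE letters had medians of 39.9 and 40.4 CPM per kb of Jun at 0 h, 18.7 and 19.7 at 6 h, then 11.5 and 10.7 at 72 h. Their Jun change was -1.03 at 6 and -1.84 at 72 against 0 h, and 183 were lower and 0 higher at 72 h. Of all tested Jun regions, 25.7% were lower and 28.0% higher at 72 against 0 h. The 332 with AP-1 letters began at 23.5 and 25.1 CPM per kb, held 21.9 and 24.5 at 6 h and had 15.9 and 14.8 at 72 h, a change of -0.16 at 6 and -0.87 at 72 against 0 h. The 1647 with neither had a change of -0.51 and -1.25. H3K27ac, which did not enter the choice, had median log2 fold changes of -0.71 with CRE letters, -0.27 with AP-1 letters and -0.71 with neither at 72 against 0 h. Promoters with CRE letters and those with neither thus had the same H3K27ac median to 2 decimals, while their Jun medians differed.

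Among the AP-1 genes, 5 of the 10 listed genes found in the promoter table had a persistent region at a promoter, namely JUN, JUND, FOSB, FOSL2 and MAFF, and 4 more (JUNB, FOS, ATF3 and MAFG) had another Jun region there. Over all starts, 9.22% of the promoter windows lay at a persistent region and 25.3% at another Jun region; a gene can have several windows, so the lists' shares of genes are not on the same scale. H3K27ac at 72 against 0 h was called higher at 4 of the 5 and lower at 1, JUND, where 81.5% of all H3K27ac regions were called (43.4% higher), and Jun had its highest values at 0 h at all 5.

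JUN, at chr1:58783874-58784652, had 115 and 117 CPM of Jun at 0 h, 25.9 and 39.2 at 6 h, then 21.3 and 19.0 at 72 h. H3K27ac was 39.6 and 38.7, 40.4 and 46.0, and 49.7 and 46.2 CPM, a log2 fold change of 0.29 at 72 against 0 h (SE 0.11, edgeR adjusted p = 0.0138). That call was lost without H3K27ac 0 h replicate 1, 0 h replicate 2 or 72 h replicate 1 (adjusted p = 0.0752, 0.11 and 0.108). Jun thus stood far above later times at 0 h, while the 6 h and 72 h H3K27ac values lay little above those at 0 h.

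JUND, at chr19:18281437-18282113, had 88.2 and 88.7, 22.9 and 22.1, and 14.8 and 11.6 CPM of Jun. H3K27ac was 52.0 and 48.7, 29.9 and 35.9, and 36.0 and 32.9 CPM (log2 fold change -0.55 at 72 against 0 h, SE 0.11, edgeR adjusted p = 6.8e-05). Both 0 h libraries were above the rest for both antibodies.

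FOSB, whose protein pairs with Jun, showed opposite courses at chr19:45467385-45468053. Jun was 71.2 and 72.8, 30.2 and 34.7, and 16.9 and 15.2 CPM, while H3K27ac was 3.07 and 3.16, 14.6 and 14.5, and 10.7 and 11.1 CPM (log2 fold change 2.22 at 6 against 0 h, SE 0.18, edgeR adjusted p = 5.42e-11). Jun was highest where acetylation was lowest, at 0 h, and neither overlapped between 0 h and later times.

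FOSL2, which encodes Fra-2, went the same way at chr2:28392327-28393369, with Jun at 27.4 and 29.5, 22.7 and 23.9, and 16.8 and 12.7 CPM and H3K27ac at 7.16 and 7.75, 17.6 and 19.1, and 15.2 and 14.8 CPM (log2 fold change 1.30 at 6 against 0 h, SE 0.14, edgeR adjusted p = 2.18e-08). MAFF, a small Maf protein gene, had Jun at 30.2 and 31.0, 20.4 and 21.2, and 8.94 and 8.40 CPM at chr22:38201658-38202216. Its H3K27ac was 8.40 and 8.64, 19.6 and 18.7, and 19.3 and 19.96 CPM (log2 fold change 1.20 at 72 against 0 h, SE 0.13, edgeR adjusted p = 6.71e-09). In FOSB, FOSL2 and MAFF the Jun and the acetylation values went opposite ways on the TMM scale, unlike the trend over all persistent regions. Their Jun log2 fold changes at 72 against 0 h were -2.16, -0.95 and -1.82. The median over persistent regions was -0.77, and it moved to -0.21 with total counts and -0.01 with factors from those regions. The fall of Jun at FOSL2 is near that median, so its size depends on the scaling.

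Of the immediate early and MAP kinase feedback genes, 6 of 18 in the promoter table had a persistent region. H3K27ac at 72 against 0 h was called higher at EGR2, KLF4 and SPRED2 and lower at KLF6 and ZFP36L1. The shares over all H3K27ac regions were 43.4% higher and 38.1% lower. EGR2, a zinc finger gene, had 8.57 and 9.27, 51.5 and 49.2, and 42.5 and 45.3 CPM of H3K27ac at chr10:62816231-62817377 (log2 fold change 2.49 at 6 against 0 h, SE 0.12, edgeR adjusted p = 6.76e-15). Jun there was 19.1 and 23.1, 30.2 and 35.6, and 20.7 and 18.4 CPM, with both 6 h libraries above the rest. KLF4 had Jun at 7.58 and 6.88, 14.5 and 15.3, and 10.0 and 8.74 CPM, the same order of times.

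SPRED2, an inhibitor of the Ras and MAP kinase path, gained acetylation by 0.94 on the log2 scale at 72 against 0 h (SE 0.11, edgeR adjusted p = 2.81e-08), with 64.1 and 60.8 CPM at 0 h and 113 and 125 at 72 h. KLF6 had Jun at 57.0 and 61.1, 11.3 and 16.4, and 11.7 and 9.51 CPM. Its H3K27ac change of -0.42 (SE 0.12, edgeR adjusted p = 0.00188) was no longer called when libraries were scaled by total counts (adjusted p = 0.0901). ZFP36L1 changed by -0.64 (SE 0.12, edgeR adjusted p = 2.37e-05). EGR1, the best known of the group, had H3K27ac between 38.7 and 49.7 CPM in all libraries, with a 72 against 0 h change of -0.04 (SE 0.11, edgeR adjusted p = 0.735).

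**Figure D5:**
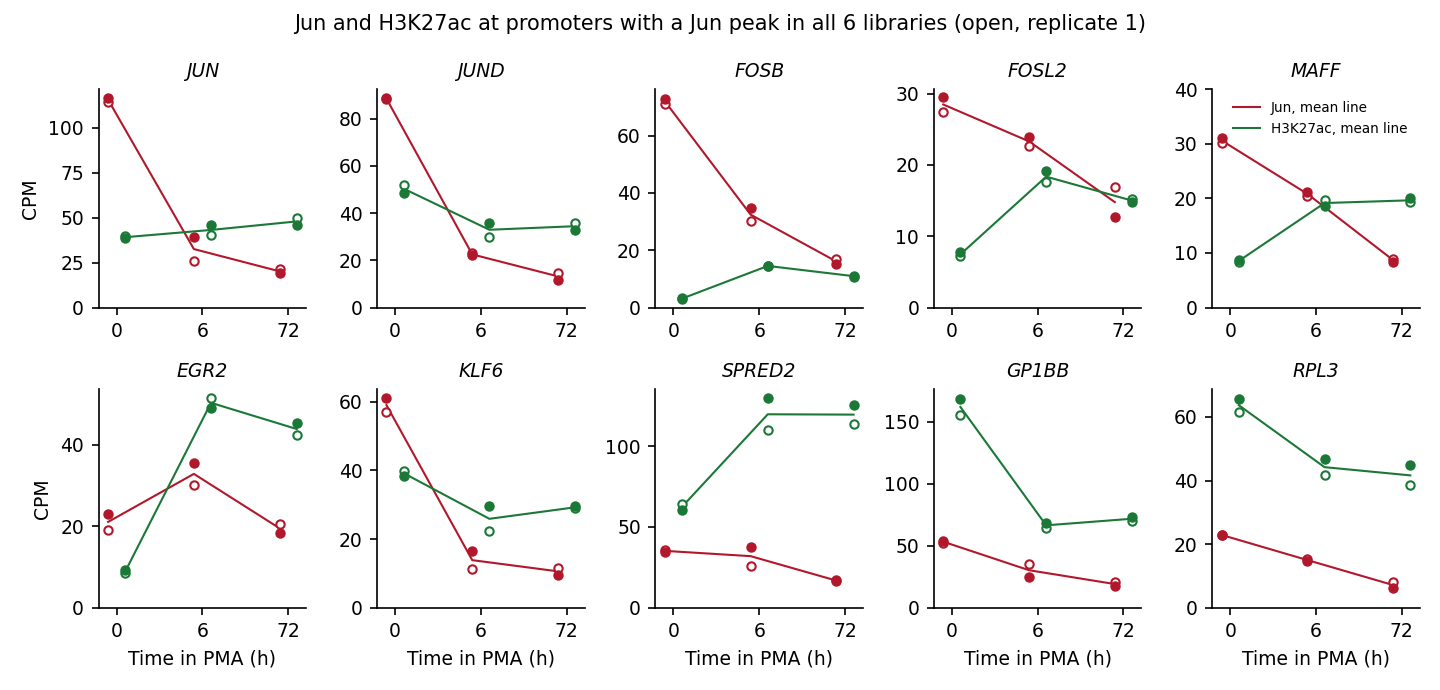
CPM of Jun (red) and H3K27ac (green) at 10 promoters with a persistent Jun region, by time in PMA, with the times evenly spaced. Counts are scaled with TMM factors, and the size of the Jun changes depends on that scaling. Points are the libraries (open, replicate 1; filled, replicate 2), lines join the means, and each panel starts at 0; in FOSB, FOSL2 and MAFF Jun is lower and H3K27ac higher at 72 h than at 0 h, while in JUND, KLF6, GP1BB and RPL3 both are lower at 72 h than at 0 h.

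Of the megakaryocyte genes, 2 of 13 in the promoter table had a persistent region, GP1BB and GP6, which encode platelet receptor subunits, and H3K27ac fell at both. GP1BB had 155 and 168, 64.2 and 68.7, and 70.2 and 73.3 CPM at chr22:19722129-19723763 (log2 fold change -1.17 at 72 against 0 h, SE 0.10, edgeR adjusted p = 1.49e-10). GP6 changed by -1.07 (SE 0.10, edgeR adjusted p = 4.8e-10). Both 0 h libraries lay above the rest in each. Of all H3K27ac regions, 38.1% were called lower at 72 against 0 h.

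Of the erythroid genes, 1 of 9 had one, TAL1, at chr1:47231945-47232810, with Jun at 24.6 and 25.1, 17.9 and 16.2, and 12.0 and 10.7 CPM. No region of the H3K27ac table overlapped it. Of the ribosomal protein genes, 3 of 12 had one, and H3K27ac fell at all 3 at 72 against 0 h, by 0.61 at RPL3, 0.75 at RPL10 and 0.84 at RPLP0 on the log2 scale, the last in a region shared with the start of PXN-AS1. Of the cohesin and CTCF genes, 2 of 10 had one, the CTCF gene and MAU2, a cohesin loader, and H3K27ac at both was lower, at -0.99 and -0.79, in regions shared with the starts of CTCF-DT and SUGP1. Beside these falls, 38.1% of all H3K27ac regions were called lower at 72 against 0 h. None of the 14 protein kinase C genes had a persistent region, and 4 of them had another Jun region at a promoter.

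With all libraries and TMM scaling, few CTCF regions at persistent Jun regions were called, but how many changed is not settled. Called or not, 43.8% of those tested differed at least 2-fold at 72 against 0 h, against 25.0% of all CTCF regions. That share was 41.0% at regions with exactly 5 Jun peaks and 32.5% at other Jun regions, so it is not particular to persistent regions. Many counts were low. Only 1923 of those tested had a mean count of 50 or more, with a median change of 0.45 beside 0.00 over all regions so filtered. What low counts add to the 2-fold shares was not tested. Of 7644 tested CTCF regions, 275 were higher and 88 lower at 6 against 0 h (4.75%, background 2.65%; 2.33% higher and 0.325% lower), 690 higher and 152 lower at 72 against 0 h (11.02%, background 6.79%; 4.07% higher and 2.72% lower), and 36 higher and 177 lower at 72 against 6 h (2.79%, background 2.18%; 0.449% higher and 1.73% lower), by edgeR's quasi-likelihood test. At 72 against 0 h, 9.09% were called at other Jun regions and 9.48% at regions with exactly 5 Jun peaks. The numbers at persistent regions rest on single libraries. At 72 against 0 h they were 67 without 0 h replicate 1, 8 without 0 h replicate 2, 1995 and 2078 without 6 h replicate 1 or 2, and 151 and 114 without 72 h replicate 1 or 2. At 6 against 0 h they were 11 without 0 h replicate 1, 222 without 0 h replicate 2 and 755 without 6 h replicate 2. At 72 against 6 h they were 717 without 6 h replicate 1 and 27 without 72 h replicate 1. The direction of calls moved as well. Of the calls, 0 of 11 were higher at 6 against 0 h without 0 h replicate 1, and 31.3% and 12.5% at 72 against 0 h without 0 h replicate 1 or 2, in place of 81.9%. At 72 against 6 h without 6 h replicate 1, 70.2% were higher in place of 16.9%. The median at 6 against 0 h went from 0.32 to -0.14 without 6 h replicate 1. With total count scaling the higher share went from 75.8% to 63.3% higher at 6 against 0 h, from 81.9% to 95.6% at 72 against 0 h and from 16.9% to 87.4% at 72 against 6 h. The median CTCF change of 0.78 (log2) at 72 against 0 h, beside 0.03 for all CTCF regions, was between 0.44 and 1.01 in the alternatives that moved the count by more than 1.5 times.

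Among called regions with no overlap between times and with CTCF signal not under the table's median, the largest losses were at promoters. At that shared by SP2, a zinc finger factor gene, and SP2-DT (chr17:47895550-47896407), CTCF was 77.5 and 133 CPM at 0 h, 19.4 and 15.1 at 6 h, then 9.45 and 14.2 at 72 h (log2 fold change -3.12 at 72 against 0 h, SE 0.32, edgeR adjusted p = 0.000682). Jun took the same course, at 80.2 and 69.1, 17.9 and 23.5, and 13.0 and 12.3 CPM, while H3K27ac changed by -0.51 (SE 0.11, edgeR adjusted p = 0.000121) and Rad21 by -0.27 (SE 0.24, adjusted p = 0.428). Both 0 h libraries of CTCF and Jun lay far above the rest. At the SPATC1L promoter CTCF changed by -2.91 (SE 0.32, edgeR adjusted p = 0.000782), and at that of TOP2A, a topoisomerase gene, by -2.87 (SE 0.35, edgeR adjusted p = 0.00135), a call lost without CTCF 0 h replicate 2 (adjusted p = 0.0526). The largest gain among the same regions, 3.01 at chr1:68384069-68385514 (SE 0.42, edgeR adjusted p = 0.00274), was lost without that library too (adjusted p = 0.0584).

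A small set of persistent regions had CTCF peaks and mostly cohesin peaks but no acetylation peak. H3K27ac peaks were absent and CTCF peaks present in all libraries at 357 regions, of which 96.9% had Rad21 in all 4 libraries. They were narrow, with a median width of 381 bp, and far from starts, with a median distance of 329368 bp. Their median Jun signal was 39.8 and 36.4 CPM per kb at 0 h, 56.6 and 31.9 at 6 h, then 10.8 and 9.49 at 72 h, and 345 were lower and 1 higher at 72 against 0 h, with a median of -2.04. The 6 h replicates lay far apart there. They did so too at chr3:93470288-93470886, a region very high for several antibodies, with 9295 and 4996 CPM of Jun at 6 h. Its Jun log2 fold change was -1.99 at 72 against 0 h. Whether the Jun signal at the 357 regions is particular to Jun was not tested. CTCF at the 357 regions had a median change of 0.37 at 72 against 0 h, with 27 called higher and 1 lower, so the Jun and CTCF values did not decline together. The shares over all tested regions were 4.07% higher and 2.72% lower for CTCF, and 28.0% and 25.7% for Jun. Over the 564 regions with neither acetylation nor a CTCF peak, the Jun median was -0.62.

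A member of that set within UBAC2, at chr13:99220985-99221355, had Jun at 37.0 and 41.6, 44.5 and 40.9, and 4.95 and 3.86 CPM. CTCF there was 38.7 and 54.5, 174 and 229, and 27.4 and 45.1 CPM (log2 fold change 2.12 at 6 against 0 h, SE 0.32, edgeR adjusted p = 0.000856). Rad21 went from 35.7 and 46.6 to 73.7 and 95.2 CPM (log2 fold change 1.04, SE 0.24, edgeR adjusted p = 0.00304). CTCF was highest at 6 h, when Jun overlapped its 0 h values, and Jun was low only at 72 h.

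Cohesin rose at more persistent regions than it fell. Of 11635 tested Rad21 regions, 3088 were higher and 331 lower at 72 against 0 h by edgeR (29.4%, background 23.3%, with 15.4% higher and 7.91% lower). At other Jun regions 30.1% were called (22.1% higher and 8.04% lower), and at regions with exactly 5 Jun peaks 26.2%. The called share was thus not particular to persistent regions, where 26.5% were higher and 2.84% lower. Their median log2 fold change was 0.42, against -0.05 over all Rad21 regions and 0.21 at other Jun regions. The number called was 1676 without 72 h replicate 1 and 2104 without 72 h replicate 2. Under total count scaling 79.0% of calls were higher in place of 90.3%, and the medians were 0.22 here and -0.25 over all. Rad21 in PDLIM4, an actin-associated gene, at chr5:132263784-132264440, went from 0.79 and 0.84 to 12.8 and 11.1 CPM (edgeR adjusted p = 4.59e-06); its 0 h values rest on 5 and 4 counts, so no fold is given. Its H3K27ac rose by 2.69 on the log2 scale at 72 against 0 h (SE 0.13, edgeR adjusted p = 9.71e-16), and both antibodies were higher in each 72 h library than in each 0 h library. At chr1:60972581-60973399 Rad21 fell from 23.4 and 24.3 to 5.66 and 4.71 CPM (log2 fold change -2.19, SE 0.28, edgeR adjusted p = 1.22e-05).

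The highest Jun signal of all came from a few regions that were also very high for CTCF and Rad21. At chr3:93470288-93470886, outside any gene span, Jun was 8352 and 7842 CPM at 0 h, 9295 and 4996 at 6 h, then 2084 and 1981 at 72 h. Regions at chr1:629175-630025 (MTND1P23 and MTND2P28) and in MTCO1P12, nuclear copies of mitochondrial genes, were also among the 6 with the highest mean, with Jun at 3718 and 4690, 3270 and 2548, and 1105 and 1068 CPM in the former. Counts at near-identical copies are uncertain, and read placement was not tested. The 6 regions with the highest mean Jun had H3K27ac, CTCF and Rad21 peaks in all libraries. At chr3:93470288-93470886 CTCF was 9435 and 9705 CPM and Rad21 10598 and 11166 CPM at 0 h. At chr1:125178882-125180711 CTCF was 3649 and 2687 and Rad21 2356 and 2772 CPM at 0 h. The signal at such regions cannot be read as particular to Jun. The 10 strongest regions held between 3.49% and 9.38% of the Jun counts at persistent regions. The region with the lowest mean, chr4:179251812-179252190, had 3.35 and 4.59, 5.45 and 5.66, and 1.76 and 1.70 CPM. Members thus spanned more than 3 orders of magnitude, with the regions high for several antibodies at the top.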

How the data were processed

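Per the submitters' processing notes, which give no roles or order, the tools were Trim Galore 0.4.3, BWA 0.7.17, SAMtools 1.9, deepTools 3.0.1, MACS2 and bedtools 2.26, and both hg19 and hg38 are named. Chromosome 20 positions run past the hg19 end of that chromosome and contig names are of the GRCh38 kind, so coordinates are read as GRCh38. How reads were counted, and the authors' test, are not given in the sources used here. The deposited tables, 1 per antibody, hold raw read counts per region and library. They also hold the authors' log2 fold changes and p-values, per the file headers. The deposited peak lists, 1 per library, hold the authors' fold enrichment and the −log10 of the q-value for each peak.

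Counts were fitted per antibody over all regions and times with edgeR 4.0.16 (quasi-likelihood test, filterByExpr, TMM scaling, no block) in R 4.3.3, and p-values were adjusted by Benjamini-Hochberg over all regions tested, with calls at 0.05. SE is the log2 fold change divided by the root of F. CPM is the count scaled to the library total times its TMM factor, unless scaling by totals alone is named. Regions of other tables, and peaks, were matched to persistent Jun regions by an overlap of at least 1 bp, with pandas 2.3.3 and numpy 2.4.6. DESeq2 1.42.0, other scalings, count filters, overlaps and peak thresholds, and leaving out each library, were alternatives. On simulated data with 200 regions changed 4-fold, the test recovered 194 for Jun, 200 for H3K27ac, 183 for CTCF and 162 for Rad21 at 72 against 0 h. Among the calls in those simulations, 11.8%, 10.7%, 10.3% and 3.57% were regions left unchanged. The changed regions were drawn from those with a mean CPM at or above the median, and all others were left unchanged. In the data 53.7% of Jun and 81.5% of H3K27ac regions were called at 72 against 0 h, so these rates may not hold there.

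Named regions are those with the highest or lowest mean Jun; the highest or lowest called log2 fold change of H3K27ac, CTCF or Rad21, with no overlap between times and a mean CPM at or above the table's median; the steadiest H3K27ac; the highest or lowest Jun log2 fold change; and members at promoters of listed genes. EGR1 and TAL1 lie outside that rule, and they and the printed promoters were chosen after their values were seen. The members and lists were chosen with earlier results of these data known. Deviations of same-numbered replicates from their group means correlated at -0.01 to 0.12, so the numbers were not taken to pair the libraries. Promoter windows of chromosome 8 were not used here, and with no genome at hand only promoter sequences were read. Some items that the rules named are not reported here.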

Additional observations from a re-analysis of the deposited data

How the results depend on the processing

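The libraries differ in depth, 2 libraries per group give little hold on their spread, and the labels do not say whether they are separate cultures. Of 1012 alternative values for 91 named results, 969 kept direction and side of the threshold, 34 lost the call, 9 gained one and 0 reversed; the lost calls are mostly for Rad21. Causes of the changes below were not tested, other than that stricter overlaps, thresholds and filters keep fewer regions by construction.

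The number of persistent Jun regions was 3944 when a peak had to cover at least 50% of the region, 5216 with peaks at a −log10 q of at least 10, and 11859 to 16227 with 1 library left out. With those same stricter rules for overlap and for q, H3K27ac peaks were at 34.3% and 43.9% at 0 h, 36.2% and 38.6% at 6 h, then 60.3% and 64.4% at 72 h. Leaving out a replicate gave 60.7% to 61.3%, 71.9% to 72.4% and 82.1% to 82.8%. CTCF peaks were at 8.52% and 11.7% at 0 h, 6.87% and 8.67% at 6 h, then 9.76% and 11.9% at 72 h, and without a replicate at 18.4% to 21.6%, 14.2% to 15.4% and, at 72 h, 25.0% to 45.0%. Rad21 peaks were at 17.8% and 23.7% at 0 h and 17.9% and 21.95% at 72 h, and without a replicate at 51.1% to 51.6% and 58.8% to 71.8%. AP-1 letters were in 4.80% of windows of 100 bases at persistent regions, against 2.83% of all promoter windows. TGACTCA or TGAGTCA alone were in 9.45% of those of 300 bases, against 4.93% of all.

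For Jun, leaving out a library gave 3052 to 5088 calls at 6 against 0 h, 6676 to 9288 at 72 against 0 h and 1746 to 6623 at 72 against 6 h, where total count scaling gave 2794 and factors from the persistent regions 3341. For H3K27ac the ranges were 7225 to 8178, 8515 to 9381 and 6060 to 7110. For CTCF they were 11 to 755, 8 to 2078 and 27 to 717. CTCF calls at 72 against 0 h were 2071 with total count scaling, 242 with DESeq2, 119 where the mean count was 50 or more, 2212 with only the 2 time points compared and 476 with an overlap of at least 50%. At 72 against 6 h they were 1136 with total count scaling and 42 where the mean count was 50 or more. Rad21 calls were 1694 with DESeq2, 1552 where the mean count was 50 or more and 1676 to 3533 with 1 library left out.

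With the replicate block, whose numbers share no stated origin, calls were 4557, 8406 and 5691 for Jun, 8441, 9262 and 7525 for H3K27ac, 439, 1432 and 337 for CTCF, in the same order of contrasts, and 3926 for Rad21.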
